A study of Mus musculus with 24 samples.

Results

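Entinostat with a CTLA-4 antibody (ENT+CTLA4) was compared with entinostat and a PD-1 antibody (ENT+PD1) in mouse mammary tumours whose RNA was counted on the same nCounter cartridge. The comparison takes 6 of the 24 samples of the series, 4 of ENT+CTLA4 against 2 of ENT+PD1, chosen by their titles and by the cartridge named in the table. It covers 601 of 750 endogenous panel genes, those that reached a normalized level of 20 in 4 or more of the 24 samples, and the other 149 were not tested. The tumours grew from NT2.5 cells, a line from a spontaneous tumour, in the mammary fat pad of female FVB-Neu-N mice aged 7 to 8 weeks. These mice carry rat neu as a transgene under a mammary tumour virus promoter and tolerate its product as a self antigen. Treatment started 3 days after implantation and ran for 3 weeks. All 6 samples had entinostat, 5 mg/kg by mouth each day in 0.5% methylcellulose. The ENT+CTLA4 mice had anti-CTLA-4 in addition and the ENT+PD1 mice anti-PD-1, each at 100 µg per mouse, 2 times a week. The protocol says that studies in these mice were run with and without anti-HER2, and the titles of these 6 samples do not name that antibody. The labels call the samples whole tumours, while the extraction protocol ends with a cell suspension meant for isolating immune cells. High Epcam (5045 to 6921 normalized counts in ENT+CTLA4, 6537 and 6881 in ENT+PD1) and Col1a1 show that epithelial and stromal RNA was present. No label says whether samples of a group came from separate experiments, so the p-values measure only the spread between tumour samples. In the main fit this spread was pooled within the 7 groups of all 24 samples.

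CTLA-4 and PD-1 are inhibitory receptors of T cells. CTLA-4 competes with CD28 for the ligands CD80 and CD86 on antigen-presenting cells and mainly restrains T cell priming, and regulatory T cells carry much of it. PD-1 binds PD-L1 (Cd274) and PD-L2 (Pdcd1lg2) on tumour and myeloid cells and dampens T cells that have already been activated. Entinostat inhibits class I histone deacetylases, which remove acetyl groups from histones.

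The 2 ENT+PD1 samples repeat the titles of ENT+PD1 replicates 1 and 2, which ran on the first cartridge with 2 further ENT+PD1 samples. Whether they are the same tumours was not settled here. After each cartridge was centred, the correlation across genes with the sample of the same title was 0.40 for replicate 1 and 0.05 for replicate 2. Samples of other titles correlated more: vehicle replicate 1 at 0.47 with replicate 1, and ENT+PD1+CTLA4 replicate 2 at 0.56 with replicate 2. None of the sample pairs compared agreed within counting noise. Recovered total counts were 346883 to 483418 in the ENT+CTLA4 samples and 271374 and 343162 in the ENT+PD1 samples. The mean of the negative control probes, scaled like the genes, was 3.59 to 5.47 in ENT+CTLA4 and 4.98 and 5.08 in ENT+PD1, against 8.16 to 12.7 in the first-cartridge ENT+PD1 samples. A gene was counted as above background in a sample when it passed the mean plus 2 SD of these probes.

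No gene differed between the groups in the limma fit across all 24 samples (0 of 601 genes, 0%, at an adjusted p under 0.05). At an unadjusted p under 0.05 there were 42 genes (6.99%), of which 31 (5.16%) were higher and 11 (1.83%) lower in ENT+CTLA4. On recovered counts edgeR and DESeq2 each called 2 genes, Ido1 and Dmbt1, both lower in ENT+CTLA4. The 4 samples of one group all lay above or all below the 2 of the other for 138 genes (23%), 101 higher (16.8%) and 37 lower (6.16%). A single gene tested alone by exact permutation could not give a two-sided p below 0.133 with 4 against 2 samples. In value 380 of 601 genes (63.2%) were higher in ENT+CTLA4, with a median log2 difference of 0.11. This overall shift followed the scaling, since it was -0.14 after samples were set to equal medians and -0.040 after quantile normalization. Each list below is therefore read beside these medians.

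**Figure D1:**
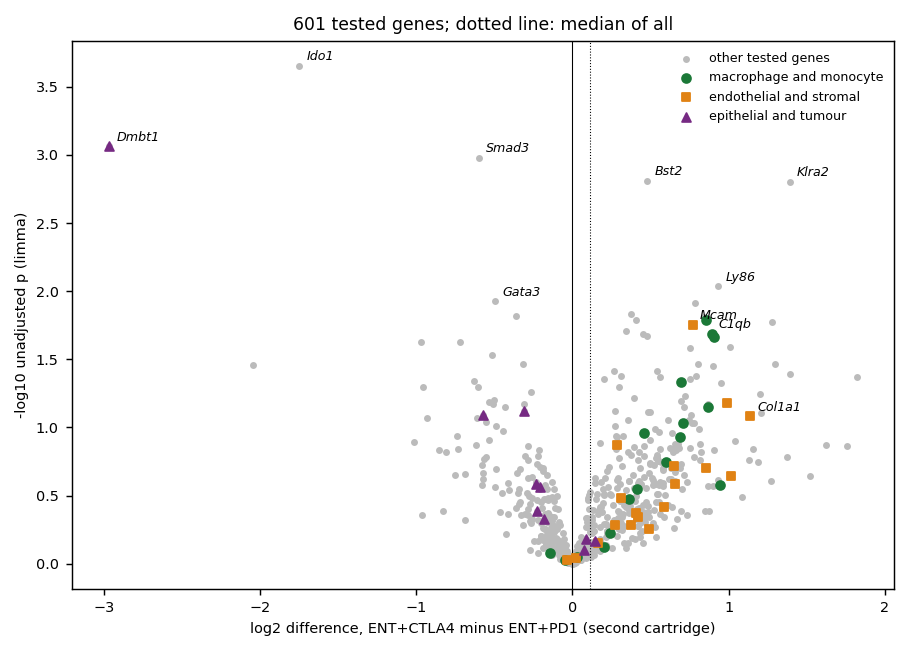
Log2 difference of ENT+CTLA4 minus ENT+PD1 on the second cartridge (x axis) and -log10 of the unadjusted limma p (y axis) for the 601 tested genes, with macrophage, stromal and epithelial genes in colour and the dotted line at the median of all genes (0.11). Ido1 and Dmbt1 lie furthest up on the left, and the green and orange points lie mostly right of the dotted line.

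Ido1 and Dmbt1 were the genes nearest to a call, both at lower values in ENT+CTLA4. Ido1, the enzyme of the first step of tryptophan breakdown and a brake on T cells, had 13.3, 8.33, 10.0 and 7.77 normalized counts in the ENT+CTLA4 samples, against 26.4 and 46.1 in the ENT+PD1 samples. The groups did not overlap, with a log2 difference of -1.75 ± 0.389 (SE, adjusted p = 0.133). Dmbt1, a secreted scavenger receptor of epithelia, had 7.18, 2.08, 10.95 and 6.21 in ENT+CTLA4 and 91.4 and 29.9 in ENT+PD1, a log2 difference of -2.97 ± 0.757 (adjusted p = 0.188). Both ENT+PD1 samples lay above all 4 ENT+CTLA4 samples for both genes, and the ENT+PD1 samples differed from each other by more counts than the ENT+CTLA4 samples did. Each gene was above background in 1 of 4 ENT+CTLA4 samples and in 2 of 2 ENT+PD1 samples, so the size of the differences was not measured. Both passed in 4 of the alternative settings: edgeR (adjusted p = 0.00606 for Ido1 and 0.0270 for Dmbt1), DESeq2 (0.00177 and 0.00726), a pseudocount of 10 (0.0317 and 0.0408) and a floor of 20 (0.00561 and 0.0142). The floor set all 4 ENT+CTLA4 values of both genes to 20, which removed their spread, and the pseudocount shrank it. The p-values of these 2 settings are therefore no separate support.

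Among the other genes of lowest p, Smad3 and Gata3 were lower in value in ENT+CTLA4 and well above background. Smad3, which carries signals of TGF-β receptors to the nucleus, had 218, 212, 202 and 164 normalized counts in ENT+CTLA4 against 297 and 302 in ENT+PD1 (log2 -0.60 ± 0.156, adjusted p = 0.188). All 4 ENT+CTLA4 samples lay below both ENT+PD1 samples, which were nearly equal. Gata3, a transcription factor of luminal mammary epithelium and of type 2 lymphocytes, had 261, 240, 252 and 190 in ENT+CTLA4 against 325 and 336 in ENT+PD1 (log2 -0.50, adjusted p = 0.646). Igf2r, the receptor that clears IGF2 and sorts lysosomal enzymes, had 379 to 467 in ENT+CTLA4 and 495 and 548 in ENT+PD1. Tlr6, the partner of Tlr2 in sensing bacterial lipopeptides, had 29.2 to 39.0 in ENT+CTLA4 and 50.8 and 62.2 in ENT+PD1. The adaptor Ticam1 (log2 -0.51) overlapped between the groups, and the class I gene H2-Q2 (log2 -0.97) was above background in 1 of 4 ENT+CTLA4 samples.

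On the other side stood Bst2, Klra2 and genes of phagocytes. Bst2, or tetherin, a membrane protein induced by interferon, had 341, 356, 369 and 400 normalized counts in ENT+CTLA4 against 246 and 280 in ENT+PD1 (log2 0.48 ± 0.130, adjusted p = 0.188). Klra2, a Ly49 family receptor, had 95.4, 47.9, 32.9 and 37.3 in ENT+CTLA4 against 15.2 and 21.2 in ENT+PD1 (log2 1.39 ± 0.380, adjusted p = 0.188). The groups did not overlap for either gene, although Klra2 was spread widely within ENT+CTLA4. Ly86, which pairs with the B cell and macrophage receptor CD180, had 313, 294, 327 and 348 in ENT+CTLA4 against 163 and 171 in ENT+PD1 (log2 0.93 ± 0.323, adjusted p = 0.646). The toll-like receptor Tlr2 (log2 0.84) and the TGF-β receptor Tgfbr1 (log2 0.41) were also higher in value in all 4 ENT+CTLA4 samples. Hmgb1, a chromatin protein that acts as a danger signal outside cells, was higher on average (log2 0.37), with 1 ENT+CTLA4 sample between the ENT+PD1 samples. None of these genes passed the adjusted threshold.

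**Figure D2:**
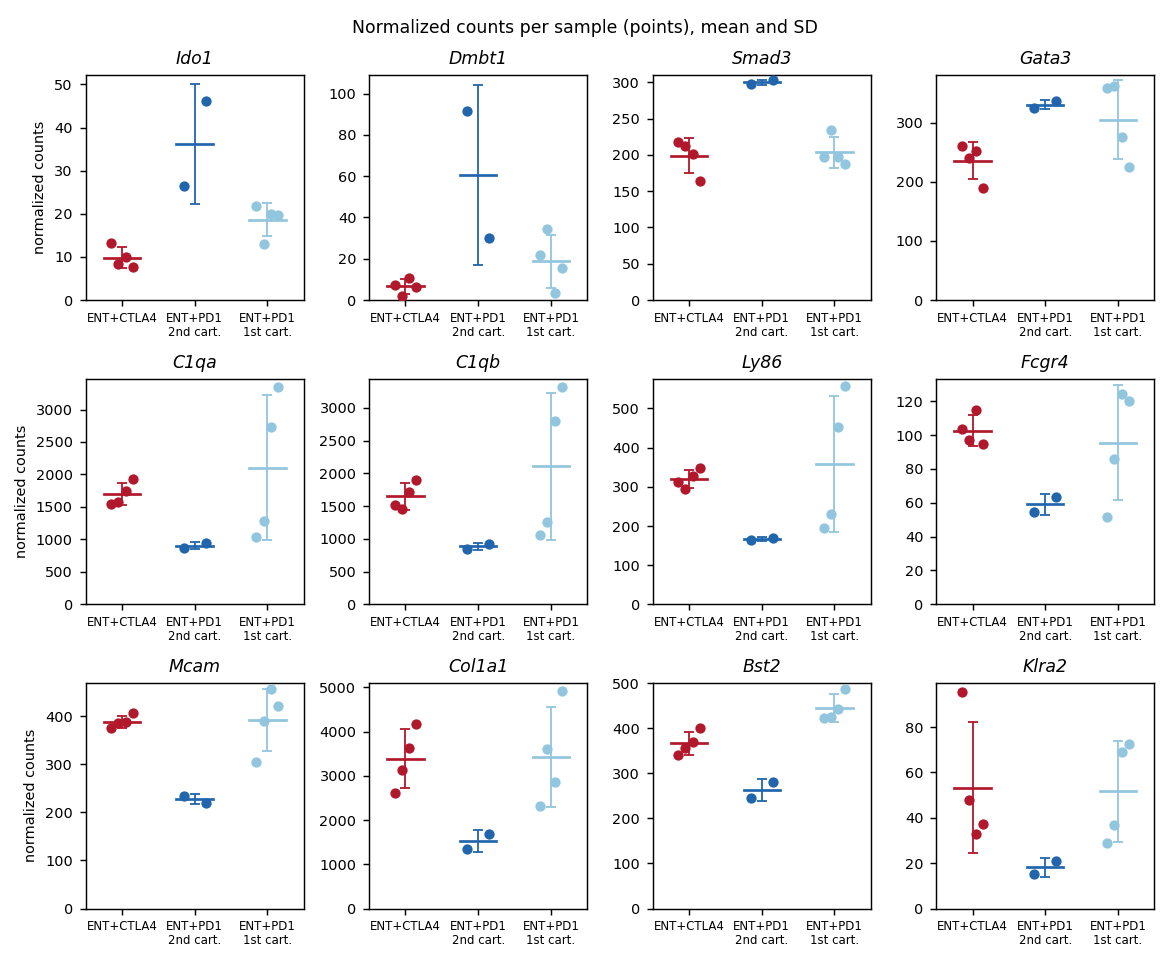
Normalized counts (y axes, from 0) of 12 genes in the 4 ENT+CTLA4 samples, the 2 ENT+PD1 samples of the second cartridge and the 4 ENT+PD1 samples of the first cartridge, with points for samples and lines for mean and SD. For C1qa and Ly86 the ENT+CTLA4 samples lie above both second-cartridge ENT+PD1 samples and inside the spread of the first-cartridge ones.

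Genes of macrophages and monocytes lay mostly above their ENT+PD1 level in ENT+CTLA4. Of 17 tested genes of the list, 15 were higher and 2 lower in value, with a median log2 difference of 0.60 beside 0.11 over all tested genes. None of them was called, 4 had an unadjusted p under 0.05 and a higher value, and 10 of 17 did not overlap between the groups, where the share over all genes was 16.8%. The list's summed level was 7062 to 9547 normalized counts in ENT+CTLA4 and 4910 and 5633 in ENT+PD1. In bulk tumour RNA, more cells of a type and more RNA per cell cannot be told apart. C1qa, a chain of the complement component C1q that tumour macrophages make, had 1545, 1581, 1743 and 1925 in ENT+CTLA4 against 865 and 937 in ENT+PD1 (log2 0.91 ± 0.365, adjusted p = 0.646). C1qb, its partner chain, had 1512, 1459, 1719 and 1900 in ENT+CTLA4 against 845 and 924 in ENT+PD1. In both genes the lowest ENT+CTLA4 sample lay far above the higher ENT+PD1 sample. Emr1, the gene of the macrophage marker F4/80, had 254 to 402 in ENT+CTLA4 and 153 and 195 in ENT+PD1. Csf1r, the receptor on which macrophages depend for survival, had 477 to 697 in ENT+CTLA4 and 313 and 432 in ENT+PD1. The lysosomal marker Cd68 (log2 0.41) did not overlap, while the mannose receptor Mrc1 (log2 0.95) ranged from 115 to 525 in ENT+CTLA4 and overlapped with 123 and 138 in ENT+PD1. Apoe, a lipid carrier that macrophages express strongly, had 9714 to 12180 in ENT+CTLA4 and 6324 and 6664 in ENT+PD1. Equal medians or quantile normalization left 12 of 17 genes higher, with medians of 0.35 and 0.40. With 1 sample left out the median was 0.37 to 0.81, lowest without ENT+PD1 replicate 1.

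Fc receptors and complement genes had similar medians, and both lists share members with the macrophage list. Of 6 tested Fc receptor genes, 5 were higher in value (median 0.61, and 0.33 without ENT+PD1 replicate 1). Fcgr1 and Fcgr4, receptors that activate phagocytes bound to IgG, had 107 to 150 and 94.8 to 115 in ENT+CTLA4, against 65.0 and 72.2 for Fcgr1 and 54.8 and 63.5 for Fcgr4 in ENT+PD1. Both were above the ENT+PD1 samples in all 4 ENT+CTLA4 samples. Fcgr3, another activating receptor, had 171 to 235 in ENT+CTLA4 and 103 and 148 in ENT+PD1. Of 20 tested complement genes, 17 were higher and 3 lower in value (median 0.58), and 5 of the 20 did not overlap with ENT+CTLA4 higher, near the share of 16.8% over all genes. The median was 0.32 without ENT+PD1 replicate 2. Cfb, a protease subunit of the alternative pathway, had 39.6 to 129 in ENT+CTLA4 and 31.1 and 33.5 in ENT+PD1 (log2 1.21, adjusted p = 0.726).

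Endothelial and stromal genes were at higher values as well, 17 of 18 tested, with a median of 0.45. Their summed level was 12594 to 19489 in ENT+CTLA4 and 8140 and 9187 in ENT+PD1, and 4 of 18 did not overlap, near the 16.8% of all genes. With 1 sample left out the median was 0.20 to 0.69, lowest without ENT+PD1 replicate 2 and 0.29 without ENT+CTLA4 replicate 1. Mcam, an adhesion molecule of vessel walls, had 376, 385, 388 and 405 in ENT+CTLA4 against 235 and 220 in ENT+PD1 (log2 0.77 ± 0.297, adjusted p = 0.646). Its ENT+CTLA4 samples were close together and all above both ENT+PD1 samples. Col1a1, a chain of type I collagen, had 2609, 3133, 3633 and 4171 in ENT+CTLA4 and 1356 and 1694 in ENT+PD1 (log2 1.14 ± 0.622, adjusted p = 0.728). Fibronectin (Fn1, log2 0.99) and the fibroblast protease Fap (log2 1.30) were also higher in value with no overlap, and Col3a1 (log2 1.02) overlapped.

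Epithelial and tumour genes went the other way by their median, with 3 of 10 higher and 7 lower in value and a median of -0.22. Their summed level overlapped, at 42819 to 63241 in ENT+CTLA4 and 51190 and 53498 in ENT+PD1. All 10 were lower under equal medians, quantile normalization, edgeR and DESeq2, so the count depends on the scaling and the direction of the median was the same in each. The median was -0.13 without ENT+CTLA4 replicate 6. Cdh1, the adhesion molecule of epithelial cells, had 1332 to 1671 in ENT+CTLA4 and 1818 and 1865 in ENT+PD1 (log2 -0.31). Epcam (log2 -0.21) and the gene of the HER2 receptor, Erbb2 (log2 -0.24), overlapped between the groups. Erbb2 had 364 to 597 in ENT+CTLA4 and 512 and 573 in ENT+PD1. The list medians of epithelial genes thus lay lower, and those of macrophage and stromal genes higher, in the same 4 samples. The part of the samples' cell makeup in the single-gene differences above was not tested.

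With only the 6 samples compared in the fit, 4 genes were called (0.666%), all higher in ENT+CTLA4: Ly86, Mcam and C1qa (each adjusted p = 0.0282) and C1qb (adjusted p = 0.0424). That fit has 4 residual degrees of freedom, against 17 with all samples, and 77 genes (12.8%) had an unadjusted p under 0.05. The SE of the 4 called genes was smaller in it, such as 0.122 against 0.323 for Ly86 and 0.107 against 0.297 for Mcam. For Klra2 the SE was larger, 0.450 against 0.380. In checks chosen after seeing these calls, equal medians or quantile normalization of the 6 samples left 0. Leaving out ENT+CTLA4 replicate 1 gave 7 calls, and leaving out any other single sample gave 0.

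The genes of the antibody targets and their ligands were weak. Of 8 tested, 4 were higher and 4 lower in value (median 0.01). The count was 3 higher and 5 lower (median -0.23) without ENT+PD1 replicate 1 and 6 higher and 2 lower (median 0.42) without ENT+PD1 replicate 2. Ctla4 itself had 17.4, 18.8, 18.3 and 30.3 normalized counts in ENT+CTLA4 against 18.3 and 26.1 in ENT+PD1 (log2 -0.08 ± 0.885, adjusted p = 0.995). Pdcd1, which encodes PD-1, stayed below the filter with 10.3, 7.29, 8.21 and 12.4 in ENT+CTLA4 and 7.11 and 13.7 in ENT+PD1. Neither antibody target therefore stood apart between the groups. Cd274 had 70.8, 42.7, 39.2 and 55.2 in ENT+CTLA4 against 37.6 and 80.9 in ENT+PD1, and the lower and higher ENT+PD1 samples enclosed all 4 values. Pdcd1lg2 was above background in 1 of 4 and 1 of 2 samples. Of the CD28 family ligands, Cd86 had 137, 117, 128 and 179 in ENT+CTLA4 against 70.0 and 77.2 in ENT+PD1 (log2 0.90 ± 0.400, adjusted p = 0.673), with no overlap. Cd80, which shares its receptors, overlapped (log2 0.21), as did Icosl (log2 0.59) and the costimulatory receptor Cd28 (log2 0.04). Of 10 tested genes of other inhibitory and costimulatory molecules, 5 were higher and 5 lower in value (median -0.03, from -0.11 to 0.29 with 1 sample left out). The one of lowest p, the inhibitory receptor Lag3, had 75.3 to 89.3 in ENT+CTLA4 and 57.3 and 57.9 in ENT+PD1 (log2 0.53, adjusted p = 0.739).

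The T cell list had its highest mean level in ENT+CTLA4 replicate 6. Cd3e, a chain of the T cell receptor complex, had 12.3, 8.33, 4.56 and 66.8 in ENT+CTLA4 against 13.2 and 21.2 in ENT+PD1. Icos, an activation receptor, had 14.4, 9.37, 4.56 and 109.5 in ENT+CTLA4 against 12.2 and 23.7 in ENT+PD1. The other 3 ENT+CTLA4 samples lay below both ENT+PD1 samples for Cd3e. Cd3e and Icos were each above background in only 2 of 4 ENT+CTLA4 samples. The mean log2 level of the 12 tested T cell genes, set to 0 at the ENT+PD1 mean, was 2.18 in replicate 6 and 0.19, -0.49 and -0.50 in the others. The list counted 9 genes higher and 3 lower in value (median 0.35) with replicate 6, and 3 higher and 9 lower (median -0.26) without it. Without ENT+PD1 replicate 1 the median was 0.15. Cd8a and Cd8b1, chains of the co-receptor of cytotoxic T cells, had 27.2 and 14.8 in replicate 6 and at most 6.16 and 4.98 in the other 5 samples. Foxp3, Gzmb and Prf1, genes of regulatory and killer cells, were below the filter, with at most 14.0 in any of the 6. Of 5 tested regulatory T cell genes 1 was higher and 4 lower in value (median -0.27), and the median was -0.04 without ENT+PD1 replicate 2 and -0.13 without ENT+CTLA4 replicate 1. The list's gene of lowest p, the chemokine receptor Ccr8, had a log2 difference of -0.56 (adjusted p = 0.739), which was -0.11 with values floored at 20 and -0.31 without ENT+CTLA4 replicate 1. Ifng was above background in 1 of 4 and 1 of 2 samples. Among 14 tested NK receptor genes, 9 were higher and 5 lower (median 0.07, and -0.08 without ENT+PD1 replicate 1), and the NK marker Ncr1 overlapped. Of 3 tested CD8 and cytotoxic genes 2 were higher in value (median 0.03, and -0.17 without ENT+CTLA4 replicate 6).

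**Figure D3:**
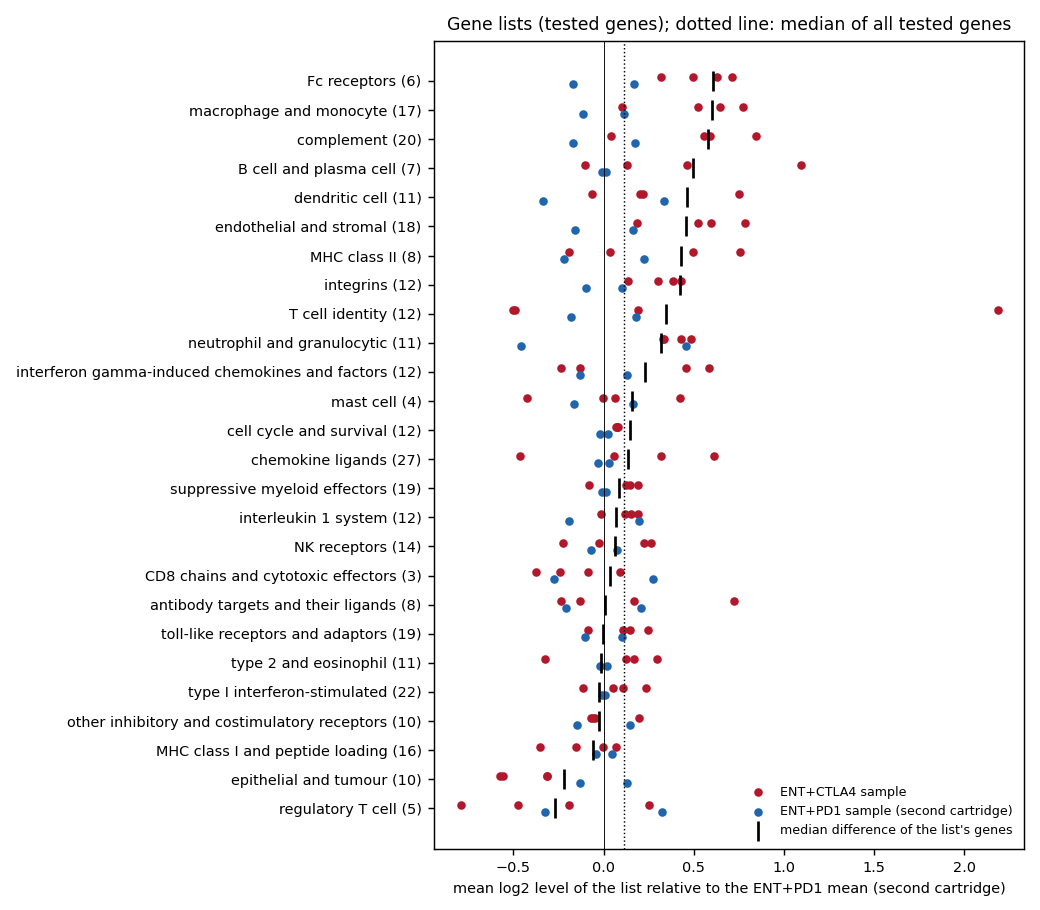
Mean log2 level of each of 26 gene lists per sample relative to the ENT+PD1 mean of the second cartridge (x axis; number of tested genes in brackets), with black bars for the median difference of the list's genes and the dotted line at the median of all tested genes (0.11). ENT+CTLA4 replicate 6 stands at 2.18 for T cell identity, and the epithelial list lies below 0 in all 4 ENT+CTLA4 samples. The epithelial means include Dmbt1 (log2 -2.97), which was above background in 1 of 4 ENT+CTLA4 samples, and its part in them was not tested.

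The remaining lists gave no called gene either, and most of their medians moved with single samples. Antigen presentation by MHC class II had 6 of 8 tested genes higher in value (median 0.43), with medians of 0.13 without ENT+PD1 replicate 1 and 0.18 without ENT+CTLA4 replicate 6. The groups overlapped for H2-Ab1, at 1741 to 3215 in ENT+CTLA4 and 1380 and 2215 in ENT+PD1. Dendritic cell genes had 8 of 11 higher (median 0.46), but 4 higher and 7 lower (median -0.08) without ENT+PD1 replicate 1, so their direction rests on that sample. Xcr1, the receptor of cross-presenting dendritic cells, was above background in 1 of 4 ENT+CTLA4 samples, so the size of its lower value was not measured (adjusted p = 0.680). Neutrophil genes had 9 of 11 higher (median 0.32), but 4 higher and 7 lower (median -0.05) without ENT+PD1 replicate 1, and their direction rests on the same sample. Clec5a, a receptor of neutrophils and monocytes, had 150 to 197 in ENT+CTLA4 and 92.4 and 142 in ENT+PD1. S100a8, a calcium-binding protein of neutrophils, overlapped, at 669 to 1555 in ENT+CTLA4 and 412 and 1032 in ENT+PD1. B cell genes had 6 of 7 higher (median 0.49), with medians of 0.17 without ENT+CTLA4 replicate 6 and 0.19 without ENT+PD1 replicate 2, and the gene of lowest p was the transcription factor Pou2f2. Integrins had 9 of 12 higher (median 0.42), with medians of 0.11 without ENT+PD1 replicate 1, 0.26 without ENT+CTLA4 replicate 6 and 0.28 without ENT+CTLA4 replicate 1.

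Lists with medians nearer to that of all genes had no settled direction or a small difference. Of 22 type I interferon-stimulated genes, 8 were higher and 14 lower in value (median -0.03), and 14 were higher and 8 lower without ENT+CTLA4 replicate 2 or without ENT+PD1 replicate 1. MHC class I and peptide loading had 6 of 16 higher and 10 lower (median -0.06, from -0.08 to 0.04 with 1 sample left out). Suppressive myeloid genes had 13 of 19 higher (median 0.08, from 0.09 to 0.21 with 1 sample left out). Arg1, the arginase of suppressive myeloid cells, had 140, 128, 248 and 144 in ENT+CTLA4 against 177 and 223 in ENT+PD1, and Nos2, the inducible nitric oxide synthase, had a log2 difference of 0.00. Interferon gamma-induced chemokines and factors had 8 of 12 higher (median 0.23, and 0.02 without ENT+CTLA4 replicate 1). Chemokine ligands had 19 of 27 higher (median 0.14, and 0.01 without ENT+PD1 replicate 1). Toll-like receptor genes had 9 of 19 higher (median -0.00, from -0.07 to 0.13 with 1 sample left out) and interleukin 1 genes 9 of 12 (median 0.07, from 0.02 to 0.24). Cell cycle genes had 8 of 12 higher (median 0.15, and 0.01 without ENT+PD1 replicate 1). Type 2 genes had 5 of 11 higher (median -0.02, from -0.18 to 0.04) and mast cell genes 2 of 4 (median 0.16, from -0.03 to 0.21). Cxcl16, a chemokine that draws CXCR6-bearing T cells, Itga5, the fibronectin receptor subunit, and Ccnd3, a cyclin of cell cycle entry, each had all 4 ENT+CTLA4 samples above ENT+PD1 (log2 0.48, 1.01 and 0.40). Il1r2, a decoy receptor for interleukin 1, and Kit, the mast cell receptor, overlapped.

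The values of the other groups show where the ENT+PD1 samples lay. Smad3 averaged 299.97 in them, against 176 to 216 in the means of the other 6 groups of the series. Ido1 averaged 36.2 and Dmbt1 60.6, against 9.09 to 18.6 and 6.60 to 18.8 in those groups. The Dmbt1 mean rests mostly on replicate 1 (91.4), since replicate 2 (29.9) lay below first-cartridge ENT+PD1 replicate 2 (34.3). C1qa averaged 901, against 1296 to 2104, and Bst2 263, against 364 to 444. Of the 16 genes of lowest p, 8 in each direction, 14 had the second-cartridge ENT+PD1 mean outside the range of the other group means, ENT+CTLA4 included, and Fcgr4 and H2-Q2 had it inside. The choice of these genes by their difference from ENT+CTLA4 favours such a count, and it supports nothing further. A single tumour given both antibodies, ENT+PD1+CTLA4 replicate 2, had 839 for C1qa and 133 for Mcam, which is below both ENT+PD1 samples.

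The same 4 ENT+CTLA4 samples can be set beside the 4 ENT+PD1 samples of the first cartridge, where treatment and cartridge cannot be told apart. The comparisons share the ENT+CTLA4 samples. Against the first-cartridge samples, 51 of 601 genes (8.49%) were called, 1 higher (0.166%) and 50 lower (8.32%) in ENT+CTLA4. The single higher one was Pou2f2. That count was 18, 83, 5 and 32 without first-cartridge ENT+PD1 replicate 1, 2, 5 or 6, and 19 and 30 without ENT+CTLA4 replicate 2 or 5. C1qa had 1044, 1287, 2736 and 3349 normalized counts in first-cartridge ENT+PD1, and the log2 difference of ENT+CTLA4 from it was -0.15, against 0.91 on the second cartridge. Ly86 (-0.03 against 0.93), Mcam (0.00 against 0.77) and Col1a1 (0.02 against 1.14) likewise had values near 0 on the first cartridge. For C1qa and Ly86 these values average unlike samples. Ly86 had 195 and 231 in first-cartridge replicates 1 and 2, and 453 and 556 in replicates 5 and 6. For both genes all 4 ENT+CTLA4 samples lay above replicates 1 and 2 and below replicates 5 and 6. For Mcam and Col1a1 the groups overlapped. The medians of several lists changed sign against the first cartridge. They were -0.22 for macrophage, -0.20 for Fc receptor, -0.56 for complement, -0.32 for stromal and 0.17 for epithelial genes. The neutrophil median kept its sign (0.29), and the median over all tested genes was -0.22. First-cartridge replicates 5 and 6 were rich in immune RNA, with 151 and 187 for Ctla4 and 60.9 and 69.5 for Pdcd1.

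Several weak genes had a larger difference against the first cartridge than against the second. Usp18, an interferon-induced protease, had 8.21, 14.6, 7.30 and 15.5 in ENT+CTLA4, 17.3 and 9.96 in second-cartridge ENT+PD1, and 44.8, 32.7, 42.1 and 37.4 in first-cartridge ENT+PD1. It fell by 1.75 on the log2 scale against the first cartridge (adjusted p = 0.00169), and its difference on the second cartridge was -0.26 (adjusted p = 0.815). The NK receptor gene Klrb1 (-1.62 against -0.55), the receptor Cd160 (-1.80 against -0.49) and the interferon-induced Ifit1 (-1.28 against -0.22) were called against the first cartridge and not against the second. The ENT+PD1 sets differed from each other for Usp18, and for Klrb1, Cd160 and Ifit1 that test gave adjusted p = 0.0851, 0.0838 and 0.0851. In the 6 samples compared on the second cartridge the 4 genes had at most 22.4 normalized counts. Some other samples of that cartridge had more, such as 36.2 for Ifit1 in ENT+CTLA4+HER2 replicate 2. The scaled negative controls of the 6 samples were also below those of first-cartridge ENT+PD1. The part of background in these differences was not tested. The ENT+PD1 sets were compared directly as well: 9 of 601 genes (1.5%) were called, 1 higher (0.166%) and 8 lower (1.33%) on the second cartridge. Leaving out 1 sample gave 15, 77, 2 and 1 calls for first-cartridge replicates 1, 2, 5 and 6, and 3 and 1 for second-cartridge replicates 1 and 2. The higher one was Igf2r (log2 0.66, adjusted p = 0.0149). The lower ones were Bst2 (log2 -0.76, adjusted p = 0.00701), Nod2 (log2 -1.63, adjusted p = 0.0149), Usp18 (log2 -1.50, adjusted p = 0.0326), Cxcr3, Il11ra1, Il22ra2, Oas2 and Tnfsf18. For these 9 genes the comparison with ENT+CTLA4 differs between the ENT+PD1 sets by the same tested amount.

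**Figure D4:**
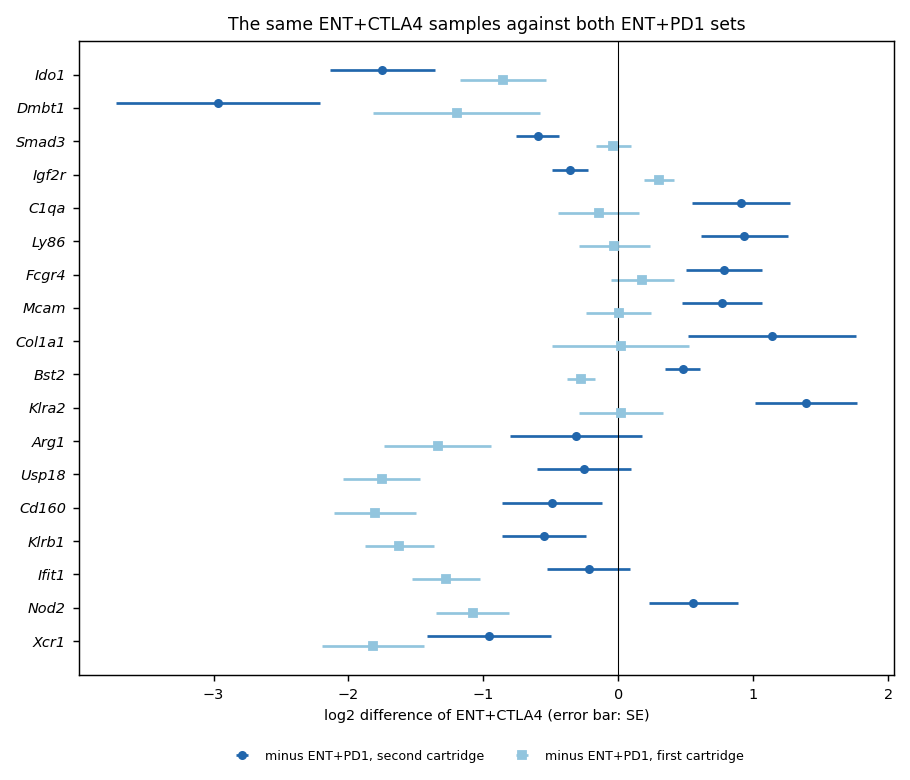
Log2 difference (x axis) with its SE (bars) of the same 4 ENT+CTLA4 samples minus ENT+PD1 of the second cartridge (dark blue circles) and minus ENT+PD1 of the first cartridge (light blue squares) for 18 genes. C1qa, Ly86, Mcam and Col1a1 lie right of 0 against the second cartridge and near 0 against the first, and Usp18 lies at -0.26 against the second and at -1.75 against the first.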

How the data were processed

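RNA was counted with nCounter probes, and the deposited table holds normalized signal, scaled by the authors with 1 factor per sample so that the geometric mean of the 20 housekeeping genes is 346.9 in every sample (read from the values). The series title names the PanCancer Immune panel and the label protocol a myeloid panel, and the genes were used as listed. Limma is named in the submitters' processing notes, and its role is not given in the sources used here. Dividing by each sample's factor gave whole counts for 100% of gene values above 1 (tolerance 0.05), and 82 values stood at exactly 1. The headers name 2 cartridges, with 12 samples on each. Of the table's sample columns, 0 were left unused.

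Log2(value + 1) of 601 genes was fitted with limma 3.58.1 (R 4.3.3, lmFit, eBayes with trend) over 7 groups, with Benjamini-Hochberg adjustment over all 601 and a threshold of 0.05. The housekeeping and control probes were not tested. edgeR 4.0.16 and DESeq2 1.42.0 on the recovered counts, other scalings, filters, pseudocounts, a replicate block and single samples left out were alternatives. Of these steps, only the limma fit was tested on simulated counts, which had the same spread setting for every gene.

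The samples, the 26 gene lists and the tests were chosen with earlier results of these data known. Named genes were the 8 of lowest p in each direction (since under 10 were called), the antibody targets and their ligands, the gene of lowest p in each other list, and a set of level checks. C1qa, Emr1, Csf1r, Mrc1, Apoe, Fcgr3, Cfb, Col1a1, Col3a1, Fn1, Fap, Cdh1, Ccl5, Usp18, Ifit1, Klrb1, Cd160, Nod2 and the other genes called between the ENT+PD1 sets were added after their values were seen. Emr1 is now called Adgre1. Symbols were matched to RefSeq by transcript or symbol for 743 of 750 genes. Some results on single genes are not reported here.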

Additional observations from a re-analysis of the deposited data

Results flagged for a closer look

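Within ENT+CTLA4, 1 sample stood apart from the other 3 by Dixon's test for 7 named genes. Chance gives about 1 such flag in 20 groups, so some are due by chance among the 66 tested named genes. The share over all tested genes is not given here, and the count is not a result about the named genes. Replicate 6 was the high one for 5 of them: Ctla4 at 30.3 normalized counts, Icos at 109.5, Cd4 at 34.2, Cd3e at 66.8 and the T cell chemokine Ccl5 at 163.9. These 5 genes come from 1 tumour and are not separate observations. Replicate 1 was high for Ticam1, at 46.2, and replicate 5 for Arg1, at 248.2.

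Of the 66 tested named genes, 4 differed between the ENT+PD1 samples of the second and the first cartridge, beside 9 of 601 genes (1.5%) over all. Usp18 and Nod2 were named after their values were seen, so the count is not a result about the named genes. For these 4 genes the difference of ENT+CTLA4 depends on which ENT+PD1 samples are used. The log2 difference, second minus first, was -0.76 for Bst2, 0.66 for Igf2r, -1.50 for Usp18 and -1.63 for Nod2. Cartridge and tumour cannot be told apart in them.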

How the results depend on the processing

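In the main comparison the calls were 2 with a pseudocount of 10, a floor of 20, edgeR or DESeq2, 4 with only the 6 samples compared in the fit, and 0 with each single sample left out and in the other settings run. The median over all genes was -0.14 at equal medians, -0.040 after quantile normalization, -0.066 in edgeR and -0.0086 in DESeq2. Against the first cartridge, the 51 calls became 5 with a filter over the samples compared, 17 with a floor of 20, 22 at equal medians, 1 after quantile normalization, 0 with only the samples compared and 27 in edgeR, and 5 to 83 with 1 sample left out. For ENT+PD1 between cartridges the 9 calls became 3 with the filter over the samples compared, 0 at equal medians, 2 after quantile normalization, 0 with only the samples compared, 0 in edgeR, 14 in DESeq2 and 0 with the replicate block, and 1 to 77 with 1 sample left out. The causes were not tested.

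The correlations of deviations for replicate numbers 1 and 2 were 0.08 and 0.05. Such values alone cannot decide whether samples of the same number share an origin. ENT+CTLA4 replicates 5 and 6 had no second-cartridge ENT+PD1 sample of the same number. Whether they came from another experiment than replicates 1 and 2 was not tested. With the replicate block the main comparison had 0 calls and 16 genes at an unadjusted p under 0.05. Several differences near 0 changed sign without passing. Cd80 was -0.035 at equal medians, -0.077 after quantile normalization, -0.030 in edgeR and -0.22 with the replicate block. Cd28 was -0.21, -0.18, -0.17 and -0.11 at equal medians, after quantile normalization, in edgeR and in DESeq2, and Nos2 was -0.24, -0.12, -0.18 and -0.14. Icos was 0.14 with a pseudocount of 10, 0.49 with a floor of 20, 0.72 in edgeR and 0.77 in DESeq2. Cd3e was 0.39, 0.20 and 0.26 with the floor, edgeR and DESeq2, and Cd4 was 0.19 with the floor. With 1 sample left out, the lowest and highest differences were -0.33 and 0.17 for Ctla4, -0.22 and 0.64 for Cd80, -0.15 and 0.23 for Cd28, -0.91 and 0.53 for Icos, -0.67 and 0.42 for Cd274, -0.097 and 0.11 for Nos2, -0.049 and 1.27 for S100a8, -1.01 and 0.20 for Cd3e, -0.62 and 0.11 for Usp18, and -0.48 and 0.044 for Ifit1. Genes near the negative controls carry the least information at this depth.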
